A study of Mus musculus with 24 samples.

Results

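The genes of GABA synthesis, storage, uptake and breakdown and the vesicular glutamate transporters are described here in embryonic mouse brain with and without the transcription factor *Tfap2b* (AP-2β). The 9 genes were chosen by name and function, with earlier results of these data known, out of 54446 genes in the deposited tables. The 6 inhibitory genes are *Gad1* and *Gad2* (synthesis), *Slc32a1* (storage), *Slc6a11* and *Slc6a13* (uptake) and *Abat* (breakdown). The 3 excitatory genes are *Slc17a6*, *Slc17a7* and *Slc17a8*.

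RNA was sequenced from 12 embryos at E14.5, 3 for each sex and genotype, and each embryo gave a library of the secondary prosencephalon (SP) and a library of the diencephalon, midbrain and hindbrain (DMH), 24 libraries in 8 conditions. Controls were Tfap2b+/+ and mutants Tfap2b-/- littermates from matings of Tfap2b+/- parents. The mutant allele carries a PGK-neo cassette inserted into an exon of *Tfap2b* in every cell of the embryo, so no value below belongs to a single cell type. The strain was not given in the labels, and neither genotype had received a treatment. As in the study, the third female mutant (female mut3) was left out of the tests. Its values are given beside some of the results, and not beside every result that they move.

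Neurons that use GABA make it from glutamate with the glutamic acid decarboxylases encoded by *Gad1* and *Gad2*, and load it into synaptic vesicles with the vesicular transporter VGAT, encoded by *Slc32a1*, which also carries glycine. Released GABA is cleared by plasma membrane transporters and broken down by the transaminase encoded by *Abat*. Neurons that use glutamate load it with a vesicular glutamate transporter, of which *Slc17a7* is typical of cerebral cortex and *Slc17a6* of diencephalon, midbrain and hindbrain. In the developing brain inhibitory neurons arise in separate zones of the forebrain, midbrain and hindbrain.

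The AP-2 factors bind palindromic GC-rich sites, so the start regions of the 9 genes were searched for the letters GCCNNNGGC, which read the same on both strands, in the RefSeq promoters of GRCm38.p6 (250 bases before to 50 after a start). A promoter was found for 8 of the 9 genes, 12 promoters in all, and not for *Abat*. The letters occurred in 3 of the 12, those of *Gad2*, *Slc6a11* and *Slc17a7*, and in 16.6% of the 32851 promoters of the table. The stretches are shown because they hold a match, given in capitals. That of *Gad2* is chr2:22622077-22622224 on the forward strand, with matches beginning at positions -242 and -121 from the RefSeq start. The GENCODE start of *Gad2* lies 1 base before the second match, at 22622205.
Gad2: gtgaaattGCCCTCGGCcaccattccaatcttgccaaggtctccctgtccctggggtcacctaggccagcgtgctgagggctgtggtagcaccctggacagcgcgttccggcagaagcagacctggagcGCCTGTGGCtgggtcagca
That of *Slc6a11* is chr6:114130991-114131240 on the forward strand, all of it before the start, with a match beginning at position -17.
Slc6a11: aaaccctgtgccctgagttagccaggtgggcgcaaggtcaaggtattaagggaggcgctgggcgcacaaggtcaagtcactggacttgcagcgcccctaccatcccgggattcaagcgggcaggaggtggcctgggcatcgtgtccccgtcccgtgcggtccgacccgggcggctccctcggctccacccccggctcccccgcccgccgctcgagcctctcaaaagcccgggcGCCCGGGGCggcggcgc
That of *Slc17a7* is chr7:45163923-45163951 on the forward strand, with a match beginning at position 13 after the RefSeq start. The GENCODE start of *Slc17a7* lies past the match, at 45163949.
Slc17a7: gtccgctacaGCCCCGGGCagcgggcact
A match of letters is a description and does not show that AP-2β binds there.

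Between 24.7 and 66.8 M counts per library fell on genes (median 32.1 M), and a count of 3, taken as the floor, equals 0.0455 to 0.123 CPM (read counts scaled to the library size with edgeR's TMM factors), a floor that covers counting error only. *Tfap2b* itself was at 281 to 435 CPM in the 6 DMH controls and at 50.4 to 56.6 CPM in the 6 DMH mutants. In SP it was at 2.75 to 4.72 CPM in both genotypes, which checks no genotype there. In 2 libraries labelled female, those of female control 2, Y-linked genes summed to 133 and 122 CPM and *Xist* was at 0.0341 and 0.0907 CPM, against 174 to 914 CPM of *Xist* in the other 10 female libraries. The data go against the label of this embryo, which was kept as 1 of the 3 female controls. The DMH pieces differed in their caudal end: 15 caudal *Hox* genes, which mark the hindbrain behind its rostral part and the spinal cord, summed to 352 to 541 CPM in 8 DMH libraries and to 0.0378 to 15.3 CPM in 4, namely female control 1, female mutants 1 and 2 and male mutant 2. The DMH library of female mut3 held 796 CPM of summed skeletal muscle genes (6.11 to 9.13 CPM in the other 11) and 1793 CPM of cartilage genes (124 to 183 CPM). The tissue labels held: 9 telencephalic genes summed to 1545 to 2128 CPM in SP and 154 to 391 CPM in DMH, and *En1* of the midbrain and rostral hindbrain was at 22.4 to 46.0 CPM in DMH and at most 0.105 CPM in SP. The SP libraries of male control 1 and female mut3 held the most thalamic RNA (326 and 341 CPM summed over 4 genes, against 112 to 183 CPM in the other 10) and midbrain and rostral hindbrain RNA (12.1 and 15.2 CPM over 8 genes, against at most 6.32 CPM).

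The comparison of DMH with SP asks where in the embryonic brain each gene was expressed. Unless a block is named, the fits between areas and of the interaction did not pair the SP and DMH libraries of an embryo. In controls, 8 of the 9 genes differed between DMH and SP at the thresholds of the study (FDR below 0.2, log2 fold change beyond 0.5 either way), against 35.9% of the 17196 genes tested. *Gad1*, *Slc32a1*, *Slc6a11*, *Slc6a13*, *Abat*, *Slc17a6* and *Slc17a8* were higher in DMH, where 21.2% of genes were called higher. *Slc17a7* was far lower in DMH, and *Gad2* did not pass the thresholds. Over the 9 genes the log2 fold change had a median of 1.04, beside -0.0029 over all genes tested. In bulk RNA, fewer cells of a type and less RNA per cell cannot be told apart.

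**Figure D1:**
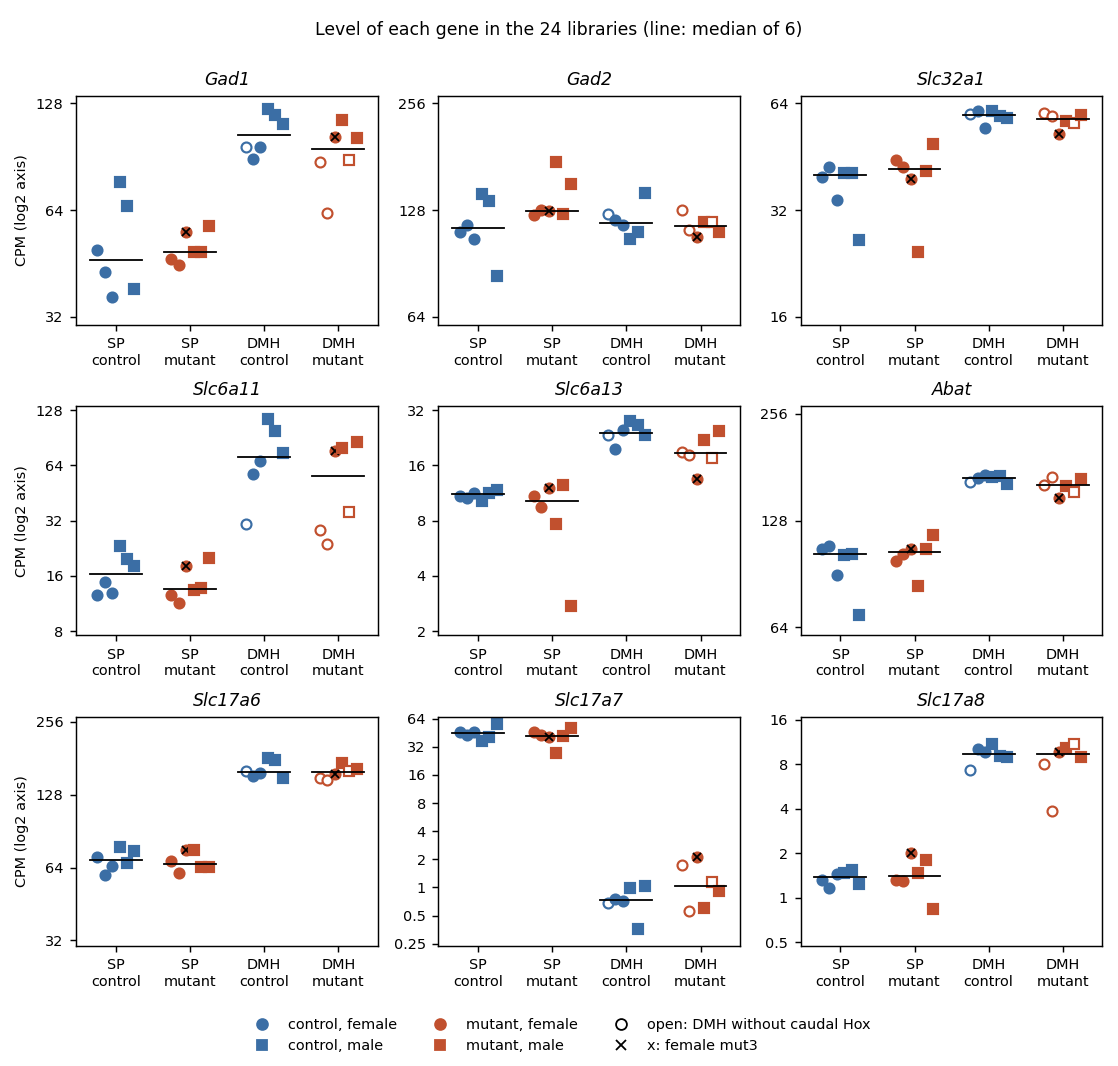
CPM (log2 axis) of the 9 genes in the 24 libraries by area and genotype. Circles are female, squares male, open symbols DMH libraries without caudal *Hox* genes, crosses female mut3, and lines the medians of 6 libraries. *Slc17a7* is the gene that is low in DMH, and *Gad2* lies at about the same level in both areas.

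The decarboxylases differed from each other. *Gad1*, whose product makes most of the GABA of the cell body, was at 36.4 to 77.0 CPM in the 6 SP controls (median 46.2) and at 89.0 to 124 CPM in the 6 DMH controls (median 104), so the groups did not overlap. Its level was 2.05-fold higher in DMH (log2 fold change 1.04, SE 0.15, edgeR adjusted p = 7.5e-05). *Gad2*, whose product is bound to nerve terminals, was at 83.3 to 142 CPM in SP controls (median 114) and at 106 to 143 CPM in DMH controls (median 118), and the groups overlapped over most of their range. Its log2 fold change was 0.04 (SE 0.12, 95% interval -0.23 to 0.31, edgeR adjusted p = 0.779). Within embryos *Gad1* was higher in DMH in 12 of 12, and *Gad2* was higher in 5 and lower in 7.

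*Gad2* outweighed *Gad1* in SP more than in DMH. In CPM per kb of exon, a scale on which genes can be compared, the ratio of *Gad2* to *Gad1* was 3.03 ± 0.529 in SP controls and 1.50 ± 0.267 in DMH controls (SD, n = 6 each). The highest of the 12 DMH libraries was at 2.34, under the lowest of the 12 SP libraries, and the ratio was lower in DMH in 12 of 12 embryos.

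*Slc32a1*, the vesicular transporter of GABA and glycine, was at 26.3 to 42.3 CPM in SP controls (median 40.2) and at 54.5 to 61.0 CPM in DMH controls (median 59.4). Every DMH control lay above every SP control, and the DMH values lay within a narrow band. The level was 1.57-fold higher in DMH (log2 fold change 0.65, SE 0.10, edgeR adjusted p = 6.97e-05). Exons of *Slc32a1* overlap those of the antisense gene *Gm14205*, so these values rest on the counts of the sense strand.

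The uptake transporters had the largest differences of the inhibitory genes. *Slc6a11*, a GABA transporter known from astrocytes, was at 12.6 to 23.2 CPM in SP controls (median 16.4) and at 30.8 to 114 CPM in DMH controls (median 71.1), 4.25-fold higher (log2 fold change 2.09, SE 0.19, edgeR adjusted p = 2.55e-06). The DMH controls were widely spread, and the lowest was female control 1, whose piece lacked caudal *Hox* genes. *Slc6a13*, a GABA transporter known from meninges and vessels as well as brain tissue, was at 10.2 to 11.8 CPM in SP controls (median 11.1) and at 19.7 to 27.955 CPM in DMH controls (median 24.2), with no overlap. It was 2.18-fold higher in DMH (log2 fold change 1.13, SE 0.07, edgeR adjusted p = 3.67e-09).

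The 10 genes of the meninges and mesenchyme list also summed higher in DMH (741 to 3373 CPM) than in SP (157 to 722 CPM). Within SP, the library of male mutant 3 had the lowest sum of that list (157 CPM, against 497 to 722 CPM in the other 11) and of 9 choroid plexus genes (44.5 CPM, against 214 to 567 CPM), and the lowest level of *Slc6a13* (2.75 CPM, against 7.69 to 12.5 CPM). In DMH, by contrast, female mut3 had the highest meninges sum, 3373 CPM, and the lowest level of *Slc6a13*, 13.5 CPM, with the second lowest choroid plexus sum, 299 CPM. The part of these tissues in the levels of *Slc6a13* was not tested.

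*Abat*, which encodes the GABA transaminase, was at 69.3 to 108 CPM in SP controls (median 103) and at 163 to 172 CPM in DMH controls (median 169). The groups did not overlap. The level was 1.73-fold higher in DMH (log2 fold change 0.79, SE 0.09, edgeR adjusted p = 3.75e-06).

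The vesicular glutamate transporters differed in direction, and *Slc17a7* was the one gene of the 9 that was lower in DMH. *Slc17a6*, which encodes VGLUT2, was at 59.7 to 77.7 CPM in SP controls (median 68.6) and at 150.5 to 182 CPM in DMH controls (median 159). It was 2.35-fold higher in DMH (log2 fold change 1.23, SE 0.06, edgeR adjusted p = 1.51e-10), and every DMH library of either genotype lay above every SP library. *Slc17a7*, which encodes VGLUT1, was at 36.6 to 56.7 CPM in SP controls (median 44.7) and at 0.362 to 1.04 CPM in DMH controls (median 0.736), a log2 difference of -5.87 (SE 0.18, edgeR adjusted p = 4.42e-11).

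The low *Slc17a7* values of DMH rested on 11 to 141 counts in the 12 libraries, above the floor in each. *Tbr1*, a marker of cortical glutamatergic neurons, was at 390 to 592 CPM in SP and 11.1 to 41.5 CPM in DMH. The amount of telencephalic tissue in the DMH pieces was not tested as a source of these counts. *Slc17a8*, which encodes VGLUT3 and is known from serotonergic, cholinergic and some GABAergic neurons, was low in both areas, at 1.16 to 1.54 CPM in SP controls (median 1.38) and 7.33 to 10.9 CPM in DMH controls (median 9.39). It was 6.80-fold higher in DMH (log2 fold change 2.76, SE 0.11, edgeR adjusted p = 4.62e-11).

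**Figure D2:**
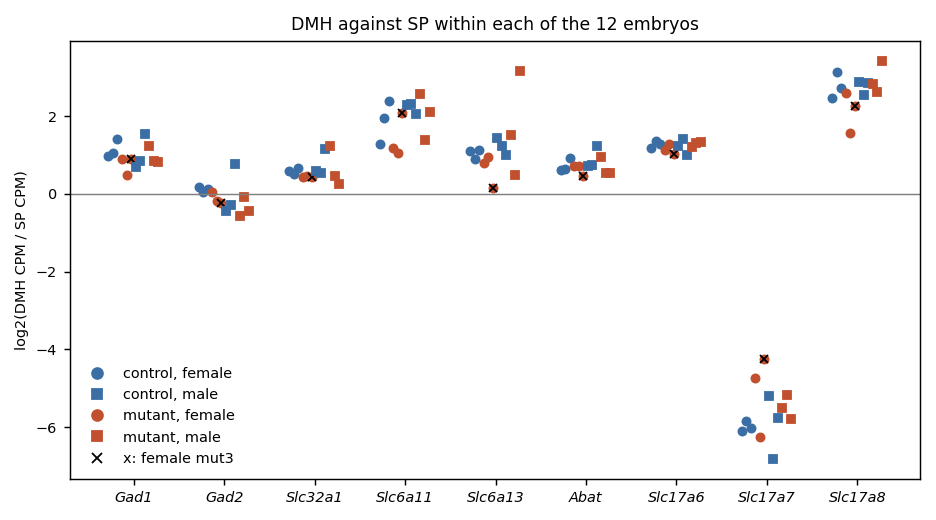
Log2 ratio of DMH CPM to SP CPM within each of the 12 embryos, 1 point per embryo, for the 9 genes. Points above 0 are higher in DMH. *Slc17a7* was lower in DMH in 12 of 12 embryos, *Gad2* scattered about 0, and the other 7 genes were higher in 12 of 12.

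Over all 24 libraries, 7 of the 9 genes had no overlap between DMH and SP, as did 28.8% of the 14414 genes with a mean of at least 1 CPM. The exceptions were *Gad2* and *Gad1*, the latter because the DMH library of female mutant 2 (62.7 CPM) lay below the SP libraries of male controls 1 and 2 (77.0 and 65.9 CPM). Neuronal genes (6 genes) summed to 5317 to 7311 CPM in SP and 7256 to 7964 CPM in DMH, and progenitor and radial glia genes (7 genes) to 1784 to 2388 CPM and 1503 to 2089 CPM. The part of a larger neuronal share of RNA in the higher DMH levels was not tested.

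In mutants, 7 of the 9 genes passed the thresholds between DMH and SP, against 36.2% of the 17148 genes tested, in the same directions as in controls. *Slc32a1* was just under the fold threshold, at 0.49 on the log2 scale (SE 0.14, edgeR adjusted p = 0.0124). With the embryo as a block it passed at 0.52, so that 8 of the 9 were called there, against 36.6% of genes. *Gad2* was lower in DMH mutants by -0.30 on the log2 scale (SE 0.11, edgeR adjusted p = 0.0423), also under the fold threshold. *Slc6a11* was 3.19-fold higher in DMH mutants than in SP mutants (1.67 on the log2 scale, SE 0.26, edgeR adjusted p = 0.000283). *Slc17a7* was lower, at -5.50 on the log2 scale (SE 0.27, edgeR adjusted p = 5.45e-08).

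The test of the difference itself, the interaction of area and genotype, called 0 of the 9 genes and 0.00565% of all genes. By that test, 365 genes had an unadjusted p under 0.05, and none of the 9 was among them. The value nearest to the fold threshold was that of *Slc6a11* (difference of log2 fold changes -0.39, SE 0.32, 95% interval -1.05 to 0.27, edgeR adjusted p = 0.999). That of *Gad2* was -0.34 (SE 0.17, 95% interval -0.68 to 0.0041, edgeR adjusted p = 0.999). With female mut3, 0 of the 9 were called as well, but *Gad2* (-0.33, SE 0.15) had an unadjusted p under 0.05, and *Slc17a7* moved from 0.36 (SE 0.34) to 0.71 (SE 0.35), past the fold threshold (edgeR adjusted p = 1 for both).

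Ranked by level in CPM per kb, the order of the genes differed between the areas. In SP controls *Gad2* came first (median 19.4), followed by *Slc32a1* (14.4), *Abat* (13.3) and *Slc17a6* (12.7), whose ranges overlapped with their neighbours in this order. *Slc17a7* (8.29) and *Gad1* (6.05) followed with ranges separate from *Slc17a6* but not from each other, then *Slc6a13* (3.83) and *Slc6a11* (3.25), and *Slc17a8* was last (0.293). In DMH controls *Slc17a6* came first (29.4), above the range of every other gene. *Abat* (21.8), *Slc32a1* (21.2), *Gad2* (20.1), *Slc6a11* (14.1) and *Gad1* (13.7) followed, each overlapping with its neighbour, then *Slc6a13* (8.33) and *Slc17a8* (1.99), and *Slc17a7* was last (0.136).

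The 19 other genes of the GABA and glutamate cycle were tested as well. Between DMH and SP of controls 8 of the 19 were called, beside the 35.9% of all genes, all 8 higher in DMH. *Slc6a5*, which encodes the glycine transporter of glycinergic neurons, had at most 2 counts in every SP library and 12 to 1201 counts in the DMH libraries. In mutants 7 of the 19 were called, beside the 36.2% of all genes.

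The ratio of inhibitory to excitatory genes was computed within each library from CPM per kb, and as a score over the chosen genes it was given no test. The synthesis ratio, *Gad1* and *Gad2* over the 3 vesicular glutamate transporters, was 1.25 ± 0.310 in SP controls and 1.07 ± 0.124 in DMH controls (SD, n = 6 each). Within embryos it was lower in DMH in 11 of 12. The embryo in which it was higher was male control 3, with 0.780 in SP and 1.30 in DMH, the lowest SP value and the highest DMH value of all.

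The storage ratio, *Slc32a1* over the 3 vesicular glutamate transporters, was 0.632 ± 0.140 in SP controls and 0.653 ± 0.0497 in DMH controls. It was higher in DMH in 4 of 12 embryos. When *Slc32a1* was set against *Slc17a6* alone, the areas moved apart, with 1.06 ± 0.227 in SP controls and 0.699 ± 0.0553 in DMH controls, and the ratio was higher in DMH in 2 of 12 embryos. The denominators account for this difference by construction: *Slc17a7* made up 38.9 ± 4.05% of the summed level of the 3 transporters in SP controls and 0.439 ± 0.148% in DMH controls, and *Slc17a6* 59.7 ± 3.94% and 93.4 ± 0.857%.

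**Figure D3:**
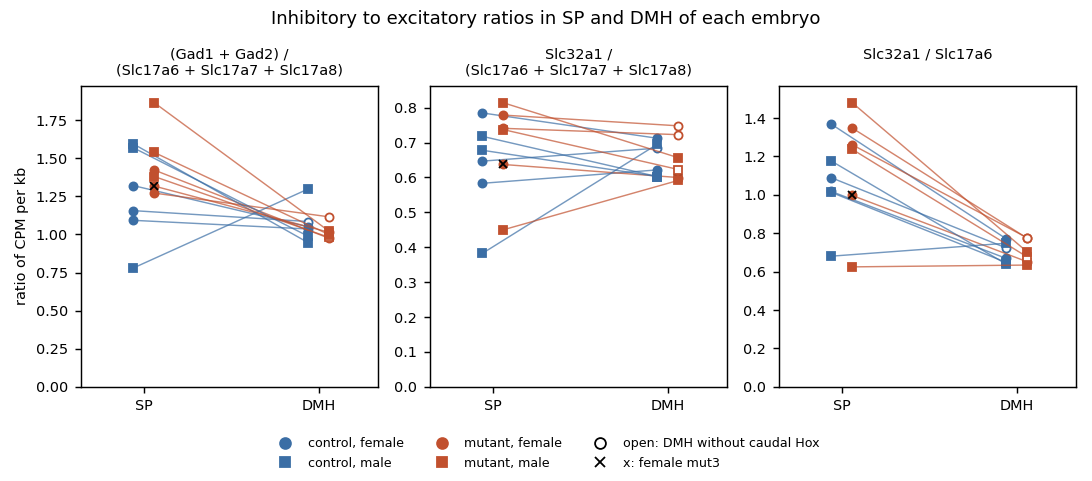
Ratios of summed CPM per kb in the SP and DMH library of each of the 12 embryos, joined by lines (colours and symbols as labelled). DMH libraries lie close together, at 0.945 to 1.30 for synthesis and 0.592 to 0.748 for storage, while SP libraries spread from 0.780 to 1.86 and from 0.382 to 0.814.

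The SP ratios were more widely spread than the DMH ratios, and 2 SP libraries stood at the edges. That of male control 3 had the lowest storage ratio, 0.382, with low levels of *Gad2* (83.3 CPM), *Slc32a1* (26.3 CPM) and *Abat* (69.3 CPM). The same library had the lowest SP levels of the subpallial genes *Dlx1* (132 CPM, against 178 to 258 CPM in the other 11), *Dlx2* (83.4 against 111 to 175 CPM) and *Nkx2-1* (13.01 against 32.5 to 51.2 CPM). That of male mutant 1 had a storage ratio of 0.450 and the highest synthesis ratio, 1.86, because *Gad2* was at 174 CPM, the highest SP value, while *Slc32a1* was at 24.4 CPM, the lowest. It also had the highest SP levels of *Tbr1* (592 CPM) and *Dlx1* (258 CPM). In the same library 9.98% of reads were unmapped (at most 7.05% in the other 23) and 7.85% multimapping (at most 5.81%), and the ambiguous share was the lowest of all, 1.10%. The part of the cut of the pieces and of library quality in these values was not tested.

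Between genotypes the ratios overlapped in both areas. In SP the synthesis ratio was 0.780 to 1.59 in the 6 controls (median 1.24) and 1.27 to 1.86 in the 6 mutants (median 1.40), and the storage ratio was 0.382 to 0.785 (median 0.662) and 0.450 to 0.814 (median 0.739). In DMH the synthesis ratio was 0.945 to 1.30 in controls (median 1.04) and 0.974 to 1.12 in mutants (median 1.01). The DMH storage ratio was 0.602 to 0.712 (median 0.653) in controls and 0.592 to 0.748 (median 0.640) in mutants.

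The comparison of mutants with controls asks whether loss of *Tfap2b* alters these genes. In the 4 comparisons by sex and area as fitted here, 0 of the 9 genes were called in female SP (0.0181% of all genes called), female DMH (0.00596%), male SP (0%) and male DMH (0.0236%). At an unadjusted p under 0.05 by edgeR, *Gad2* in female SP and *Gad1* and *Slc6a13* in female and in male DMH were counted, 5 of the 36 tests. Of all genes, 2.58% (SP) and 8.9% (DMH) lay under that p in females and 3.65% (SP) and 2.89% (DMH) in males. Without the embryo labelled female control 2, 0 of the 9 were called in female SP (0.012% of all genes) and in female DMH (0.0121%). With both sexes together, 0 of the 9 were called in SP (0%) and in DMH (0.0523%), with *Slc6a11* in SP and *Gad1*, *Slc6a11* and *Slc6a13* in DMH at an unadjusted p under 0.05, where 5.07% of all genes lay in SP and 15% in DMH. DESeq2 also called 0 of the 9 in each of these comparisons, with 0.0423 to 0.459% of all genes called. Over the 9 genes the log2 fold change had a median of -0.04 in SP and -0.06 in DMH, beside 0.0043 and -0.0025 over all genes. Of the 19 other cycle genes, 17 were tested in SP and 19 in DMH, and none was called in any of these comparisons.

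In SP the ranges of mutants and controls overlapped for each of the 9 genes. *Gad2* was at 83.3 to 142 CPM in the 6 controls (median 114) and at 124 to 174 CPM in the 6 mutants (median 128). Its log2 fold change over both sexes was 0.28 (SE 0.14, 95% interval -0.02 to 0.58, edgeR adjusted p = 0.901). In females its controls, at 111, 117 and 106 CPM, lay below the mutants, at 124, 128 and, for female mut3, 127 CPM, a separation that 5.97% of genes had. Without female mut3, *Gad2* and *Slc32a1* were separate in female SP, as were 14.7% of genes. In males the groups overlapped, with 142, 136 and 83.3 CPM in controls and 174, 125 and 151 CPM in mutants.

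For the other SP genes the intervals of the mutant to control difference were of unequal width. That of *Slc17a6* was the narrowest, from -0.21 to 0.13 on the log2 scale (log2 fold change -0.04, edgeR adjusted p = 0.952). Those of *Gad1* (-0.40 to 0.28), *Slc32a1* (-0.20 to 0.49), *Abat* (-0.15 to 0.35), *Slc17a7* (-0.39 to 0.23) and *Slc17a8* (-0.40 to 0.40) all contained 0 and stayed inside 0.5. The estimate of *Slc6a11* was -0.26 (SE 0.12, 95% interval -0.51 to -0.0056, edgeR adjusted p = 0.901). Male control 1, with its thalamic RNA, had the highest SP levels of *Slc6a11* (23.2 CPM) and *Gad1* (77.0 CPM), and without it the estimates were -0.21 and 0.05. With female mut3 that of *Slc6a11* was -0.14. The widest was that of *Slc6a13* (-0.89 to 0.25), whose mutants included male mutant 3 at 2.75 CPM.

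**Figure D4:**
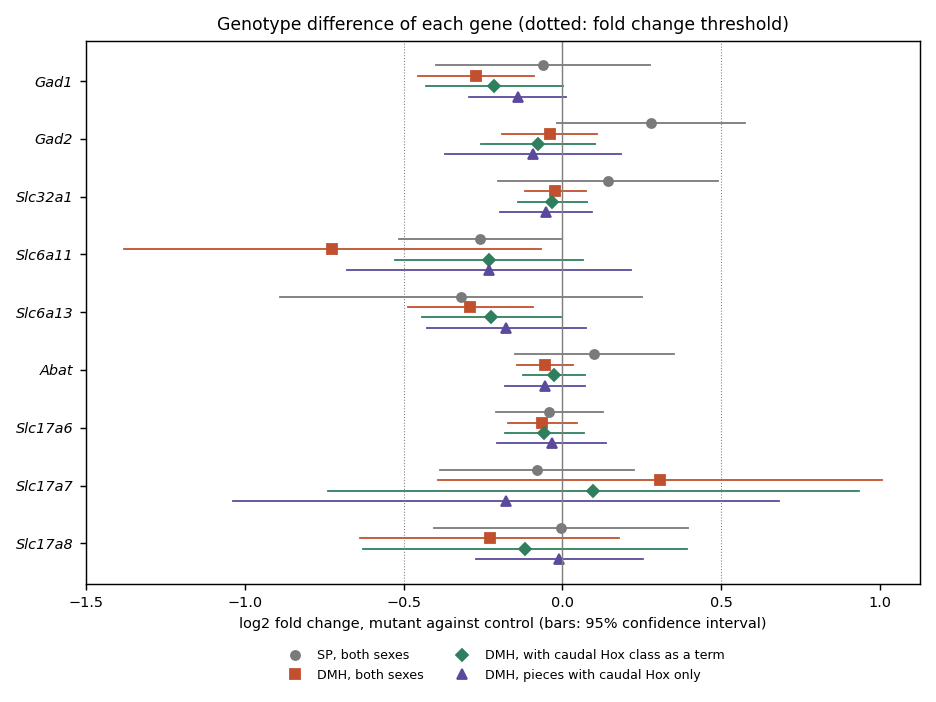
Log2 fold change of mutants against controls for the 9 genes, with 95% confidence intervals from edgeR, in SP, in DMH, in DMH with caudal *Hox* class as a term, and in DMH pieces with caudal *Hox* genes only. Dotted lines mark the fold threshold of 0.5. The red interval of *Slc6a11* (DMH, -1.38 to -0.07) is the widest on the lower side, and its green estimate (with the *Hox* term) is -0.23.

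In DMH the estimates of *Gad1*, *Slc6a11* and *Slc6a13* were below 0 without being called. *Gad1* was at 96.5, 89.0 and 96.7 CPM in female controls and at 87.4, 62.7 and, for female mut3, 103 CPM in female mutants. In males it was at 124, 119 and 112 CPM in controls and at 115, 88.5 and 102 CPM in mutants. The groups overlapped in males and, with female mut3, in females. Over both sexes the log2 fold change of *Gad1* was -0.27 (SE 0.08, 95% interval -0.46 to -0.09, edgeR adjusted p = 0.327), and with female mut3 it was -0.20 (SE 0.10, edgeR adjusted p = 0.94).

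*Slc6a13* was at 23.5, 19.7 and 24.8 CPM in female DMH controls and at 18.99, 18.2 and, for female mut3, 13.5 CPM in female mutants, a separation that 4.71% of genes had. The choroid plexus sums of these libraries were also separate, at 553, 608 and 591 CPM in controls and 245, 420 and 299 CPM in mutants, and their part in the levels of *Slc6a13* was not tested. Without female mut3, *Gad1*, *Slc6a11*, *Slc6a13* and *Slc17a6* were separate in female DMH, as were 26.1% of genes. In males it was at 27.955, 26.7 and 23.6 CPM in controls and at 22.1, 17.5 and 24.8 CPM in mutants, and the groups overlapped. The log2 fold change over both sexes was -0.29 (SE 0.09, 95% interval -0.49 to -0.09, edgeR adjusted p = 0.327), and with female mut3 it was -0.36 (SE 0.11, edgeR adjusted p = 0.94).

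*Slc6a11* was at 30.8, 57.6 and 67.3 CPM in female DMH controls and at 28.4, 23.8 and, for female mut3, 76.5 CPM in female mutants. In males it was at 114, 98.8 and 74.9 CPM in controls and at 80.0, 35.9 and 85.6 CPM in mutants. The spread within each genotype was larger than the difference between them. The log2 fold change over both sexes was -0.72 (SE 0.29, 95% interval -1.38 to -0.07, edgeR adjusted p = 0.327), past the fold threshold but not the FDR. With female mut3 it was -0.40 (SE 0.33, 95% interval -1.14 to 0.34, edgeR adjusted p = 0.94), under the fold threshold. Without female control 1 the log2 fold change in females was -1.25 (edgeR adjusted p = 0.00661), and without male mutant 1 that over both sexes was -0.82 (edgeR adjusted p = 0.193), so that in these 2 fits *Slc6a11* was called, against 6.63% and 3.1% of all genes. Without female control 1, both remaining female controls had caudal *Hox* genes and both female mutants lacked them, so genotype and *Hox* content cannot be told apart in that fit. Without male mutant 1, only male mutant 3 of the remaining mutants had caudal *Hox* genes, and only female control 1 of the controls lacked them. In that fit too, *Hox* content was not balanced between genotypes.

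*Gad2*, *Slc32a1*, *Abat* and *Slc17a6* differed little between genotypes in DMH, with 95% intervals over both sexes of -0.19 to 0.11, -0.12 to 0.07, -0.14 to 0.03 and -0.17 to 0.05. *Slc32a1* was at 54.5 to 61.0 CPM in the 6 controls and at 52.6 to 60.3 CPM in the 6 mutants, and *Slc17a6* at 150.5 to 182 CPM and 147 to 174 CPM. The intervals of *Slc17a7* (-0.39 to 1.01) and *Slc17a8* (-0.64 to 0.18) were wide. With female mut3, whose DMH library had the highest level of *Slc17a7* (2.14 CPM), the log2 fold change of *Slc17a7* moved from 0.31 (SE 0.32) to 0.58 (SE 0.35, edgeR adjusted p = 0.94). *Slc17a8* was lowest in female mutant 2 (3.86 CPM, against 7.33 to 11.0 CPM in the other 11 DMH libraries). Without the filter on low counts it was called in female DMH (log2 fold change -0.61, edgeR adjusted p = 0.0255), as were 1.81% of all genes in that fit. The interaction of sex and genotype, by edgeR, called 0 of the 9 genes in SP and in DMH (0% of all genes in each), and DESeq2 also called 0 (0.0173% and 0.0741% of all genes). At an unadjusted p under 0.05 the edgeR test also counted 0 of the 9, and 383 genes in SP and 351 genes in DMH. Without the embryo labelled female control 2 the interaction again called 0 of the 9, and 0% of all genes, in each area.

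The caudal *Hox* content of the DMH pieces was not balanced between genotypes, since 1 control and 3 mutants made up the 4 pieces without. The study did not define these classes; they were set from the *Hox* sums alone, with a cut at 50 CPM. With sex and genotype in the fit, 1 of the 9 genes, *Slc6a11*, differed between pieces with and without caudal *Hox* genes, against 6.89% of the 17555 genes tested. *Slc6a11* was at 30.8 CPM (female control 1), 28.4 and 23.8 CPM (female mutants 1 and 2) and 35.9 CPM (male mutant 2) in the 4 pieces without, and at 57.6 to 114 CPM in the 8 pieces with (median 78.2). The classes did not overlap, as for 23.4% of the 14535 genes with a mean of at least 1 CPM. Its level was 2.14-fold higher in pieces with caudal *Hox* genes (log2 fold change 1.10, SE 0.16, edgeR adjusted p = 0.00744), and with female mut3 the log2 fold change was 1.27.

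**Figure D5:**
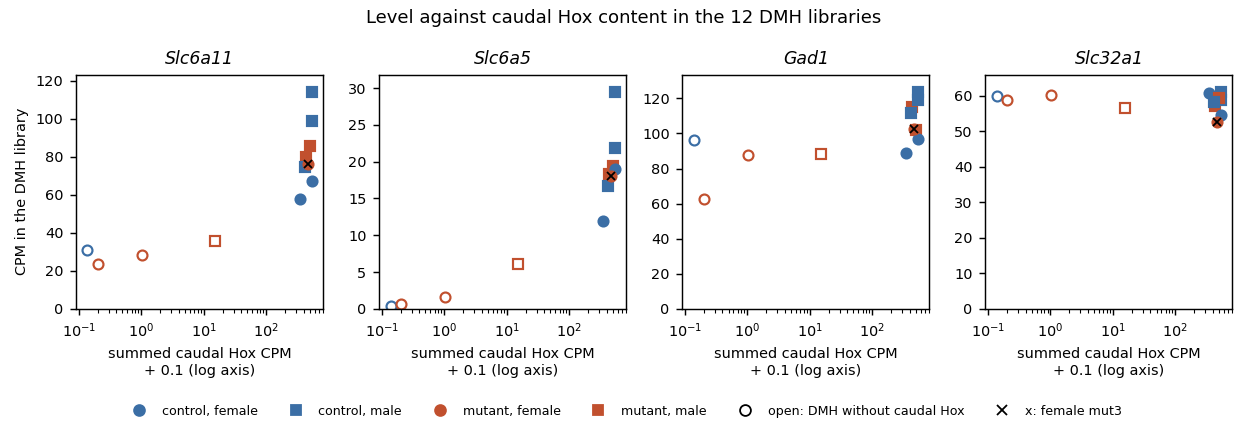
CPM of *Slc6a11*, *Slc6a5*, *Gad1* and *Slc32a1* in the 12 DMH libraries against the summed CPM of 15 caudal *Hox* genes plus 0.1 (log axis). Open symbols are the 4 pieces without caudal *Hox* genes. *Slc6a11* was at 23.8 to 35.9 CPM in these and at 57.6 CPM or more in the other 8, while *Slc32a1* lay between 52.6 and 61.0 CPM throughout.

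The other 8 genes did not pass the thresholds between the classes. *Gad1* was at 62.7 to 96.5 CPM in pieces without and at 89.0 to 124 CPM in pieces with, and its log2 fold change was 0.13 (SE 0.12, 95% interval -0.13 to 0.38, edgeR adjusted p = 0.513), or 0.23 with female mut3. *Slc32a1* was at 56.4 to 60.3 CPM and 52.6 to 61.0 CPM (log2 fold change -0.02, SE 0.06, 95% interval -0.15 to 0.11, edgeR adjusted p = 0.856). *Slc17a6* was at 147 to 161 CPM and 150.5 to 182 CPM (log2 fold change 0.01, 95% interval -0.13 to 0.16, edgeR adjusted p = 0.929). The storage ratio was 0.623 to 0.748 in the 4 pieces without and 0.592 to 0.712 in the 8 pieces with.

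Of the 19 other cycle genes, *Slc6a5* and *Slc1a6* were higher in pieces with caudal *Hox* genes. *Slc1a6* is a glutamate transporter known from cerebellar Purkinje cells. It was named after its values were seen (log2 fold change 0.52, SE 0.14, edgeR adjusted p = 0.037). *Slc6a5* was at 0.453, 1.64, 0.667 and 6.14 CPM in female control 1, female mutants 1 and 2 and male mutant 2, and at 11.9 to 29.5 CPM in the other 8 (log2 fold change 2.71, SE 0.60, edgeR adjusted p = 0.0378). The 4 pieces without caudal *Hox* genes also had higher sums of 4 thalamic genes (1333 to 1699 CPM, against 812 to 1079 CPM). Progenitor and radial glia genes summed to 1854.2 to 2089 CPM in them and to 1503 to 1854.3 CPM in the others, ranges that just overlapped. Which of these tissues went with the level of *Slc6a11* was not tested.

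With the *Hox* class as a term, 0 of the 9 genes were called between genotypes in DMH by edgeR (0.0228% of all genes) or by DESeq2 (0.0684%), and *Slc6a13* had an unadjusted p under 0.05, as did 2.35% of all genes. The log2 fold change of *Slc6a11* was then -0.23 (SE 0.13, 95% interval -0.53 to 0.06, edgeR adjusted p = 1). In the pieces with caudal *Hox* genes alone, 5 controls and 2 mutants, it was -0.23 (SE 0.18, edgeR adjusted p = 1). With female mut3 these estimates were -0.09 (SE 0.12) and -0.04 (SE 0.17). In those pieces *Slc6a11* was at 57.6 to 114 CPM in the 5 controls and at 76.5, 80.0 and 85.6 CPM in the 3 mutants with female mut3. With the *Hox* term *Gad1* was at -0.21 (SE 0.10, 95% interval -0.43 to 0.003) and *Slc6a13* at -0.22 (SE 0.10, 95% interval -0.44 to -0.0035), both log2 fold changes, with an edgeR adjusted p of 1. With female mut3 they were -0.13 (SE 0.09) and -0.38 (SE 0.12), with an edgeR adjusted p of 1. In the pieces with caudal *Hox* genes alone *Gad1* was at -0.14 (SE 0.07), and at -0.04 with female mut3, and *Slc6a13* at -0.18 (SE 0.11), and at -0.36 with female mut3. In the fit with the *Hox* term *Slc32a1* was at -0.03 (SE 0.05) and *Slc17a6* at -0.06 (SE 0.06). *Slc17a7* was at 0.10 (SE 0.39) there, and at 0.65 (SE 0.37) with female mut3.

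The genes whose levels followed each gene most closely over the 12 DMH libraries were found by Pearson's r of log2(CPM + 0.5) among 14529 genes with a mean of at least 1 CPM. These libraries fall into the 2 *Hox* classes, so r is given as a measure of likeness only. For *Slc6a11* they were *Sv2b* (r = 0.995), *Adora1* (0.993) and *Cplx1* (0.992), and for *Gad1* they were *Trpc1* (0.973), *Rnf180* (0.972) and *Zkscan16* (0.967). For *Gad2* they were *Dlx6os1* (0.910), *Dlx1as* (0.897) and *Dlx1* (0.884), transcripts of the *Dlx* loci of forebrain inhibitory neurons. *Dlx1* was at 103 CPM in the DMH library of male control 3, the highest in DMH, which also had the highest DMH level of *Gad2* (143 CPM). For *Slc17a6* they included *Elovl4* (0.949) and *Atp6v1a* (0.940), and for *Slc32a1* they were *Ccr1* (0.879), *Polr2l* (0.826) and *Ankrd54* (0.813). *Slc17a7* was under the minimum level in DMH. *Gad1* and *Gad2* did not follow each other, with r = -0.06.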

How the data were processed

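The authors deposited 1 table of raw read counts per gene for each of the 24 libraries, made with cutadapt 2.4 and STAR 2.6.1d on GRCm38.p6 (mm10), per the labels. The annotation release was not given in the sources used here. Each table has 3 count columns, of which that for the reverse strand was used (the unstranded column as an alternative, the other not at all). The 4 lines that name no gene (unmapped, 5.46 to 9.98% of a library, multimapping, 4.96 to 7.85%, outside genes, 4.68 to 7.46%, and ambiguous, 1.10 to 1.62%) were kept out of totals. GENCODE mouse release 21 gave symbols to 54409 of the 54446 identifiers and the exon lengths for CPM per kb.

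Counts were tested with edgeR 4.0.16 (R 4.3.3, TMM factors, low counts filtered with filterByExpr, quasi-likelihood test, Benjamini-Hochberg adjustment over all genes tested), with DESeq2 1.42.0 as an alternative. The study's thresholds were kept (FDR below 0.2, log2 fold change beyond 0.5 either way). The fits were tested on simulated data. Intervals of fold changes are at 95%. Embryos were separate animals. Female mut3 was left out of the tests, as in the study. The DMH pieces were classed by a sum of 15 caudal *Hox* genes at 50 CPM.

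SP and DMH pieces with the same number came from the same embryo, and their deviations correlated with r from 0.0505 to 0.563 (11 of 12 pairs over 0.1), so the fit with the embryo as a block was given where it changed a call. The members and the gene lists were chosen with earlier results of these data known. All 9 members are named whatever their values. Of the other cycle genes, *Slc6a5* is named, and *Slc1a6* was named after its values were seen. The 3 nearest genes by r were sought for *Gad1*, *Gad2*, *Slc32a1*, *Slc6a11*, *Slc17a6* and *Slc17a7*. For *Slc17a7*, which was under the minimum level in DMH, none were found. A few genes that this rule names are not reported here. Alternatives were other size factors, filters, strands, tools and thresholds, the block, female mut3 included, and leaving out each embryo.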

Additional observations from a re-analysis of the deposited data

Results flagged for a closer look

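Among 48 groups of 4 to 10 libraries in which the farthest value was set against the group's range (Dixon's test at 95%), 3 had a library that stood apart. Chance gives about 1 in 20. All 3 were among the SP mutants without female mut3. *Slc6a11* was at 20.002 CPM in male mutant 3, above 11.4 to 13.7 CPM in the other 4. Female mut3 was at 18.02 CPM and the male SP controls were at 18.1 to 23.2 CPM, so with these libraries male mutant 3 did not stand apart. The storage ratio was 0.450 in male mutant 1, the lowest of the 5, and its ratio of *Slc32a1* to *Slc17a6* was 0.625, also the lowest. In the same libraries the meninges sum of male mutant 3 was 157 CPM, and *Tbr1* of male mutant 1 was 592 CPM, with 9.98% of its reads unmapped. Their part in these values was not tested.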

How the results depend on the processing

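Of 2160 values of single genes under alternatives, 2146 kept their side of the thresholds, 13 passed them newly and 1 no longer passed. The sign was opposite in 112, none of them a called value. In female DMH, 1 of the 9 genes was called without a filter on low counts (*Slc17a8*), against 1.81% of all genes. With the log2 *Hox* level in place of the class, 0 were called between DMH pieces, since the slope of *Slc6a11*, 0.14 per doubling (edgeR adjusted p = 0.0234), is on another scale than the fold threshold. In the leave-one-out fits 1 embryo was left out, with both its libraries in the fits between areas. They called 8 to 8 genes between areas in controls and 7 to 8 in mutants, where 35.9% and 36.2% of all genes were called as reported. They called 0 to 1 in female DMH and in DMH of both sexes, the 1 against 6.63% and 3.1% of all genes. Between *Hox* classes they called 1 to 1 (6.89% of all genes as reported), and 0 in the other comparisons. The ranges of calls among all genes over all alternatives are given below. Without division by length the mean ratios of controls were 1.47 and 1.31 (synthesis, SP and DMH), 0.328 and 0.341 (storage, SP and DMH) and 0.548 and 0.362 (*Slc32a1* to *Slc17a6*). From unstranded counts the last 4 were 0.472, 0.490, 0.789 and 0.524. The exons of *Slc32a1* overlap those of *Gm14205*, whose part in this was not tested.

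With the replicate number as a block (between areas, the embryo), 8 genes were called between areas in mutants, against 36.6% of all genes. In controls the block called the same 8 genes as the fit without it, in which 35.9% of all genes were called. In the genotype comparisons the block called 0 of the 9 genes. Controls and mutants share only a number (r from -0.166 to 0.594, 7 of 12 pairs over 0.1). The block raised the calls over all genes from 3 to 71 in female SP and from 1 to 41 in female DMH. Over all alternatives, calls among all genes ranged from 4763 to 13491 between areas in controls (6169 as reported) and from 4768 to 11403 in mutants. They ranged from 0 to 1117 in female DMH (1117 without female control 1) and from 2 to 531 in DMH of both sexes (531 without male mutant 1). In female SP the range was 0 to 71, in male SP 0 to 20, in male DMH 3 to 17 and in SP of both sexes 0 to 28. For the interaction of area and genotype it was 1 to 6, and between *Hox* classes 33 to 5213 (1210 as reported).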
